A study of Mus musculus with 2 samples.

Results

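The insulin-like growth factor (IGF) genes were described in single cells of normal and fibrotic mouse liver. The set was fixed by name and holds 9 genes: the ligands Igf1 and Igf2, the receptor Igf1r, and the binding proteins Igfbp2, Igfbp3, Igfbp4, Igfbp5, Igfbp6 and Igfbp7. They are 9 of the 21722 genes listed in at least 1 of 2 tables. All 9 were listed in the normal library and 8 in the fibrotic library, where Igf2 had no row.

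Both libraries came from the non-parenchymal cells of the liver, that is, the cells left after most hepatocytes had been spun out of a collagenase digest. Each library was made from 1 male C57BL/6 mouse, given intraperitoneal injections from 8 weeks of age, 2 a week for 6 weeks. The normal library (Q, for quiescent) came from a mouse given olive oil, and the fibrosis library (F) from a mouse given carbon tetrachloride (CCl4) in olive oil, a toxin that kills hepatocytes and causes scarring. With 1 mouse per condition there was no replicate and no test, and a difference between libraries is a difference between 2 animals. Q held 8130 cells with 44062632 unique molecular identifiers (UMIs, each marking 1 captured mRNA molecule) and F held 6437 cells with 53288463 UMIs, at medians of 4144.5 and 5619 UMIs per cell.

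IGF1 and IGF2 act through the type 1 IGF receptor, a tyrosine kinase that signals to growth and survival. In the body, IGF1 comes chiefly from hepatocytes under growth hormone. Most IGF in blood and tissue is bound to binding proteins, which carry it, keep it from the receptor or hold it in the matrix until a protease cuts them. Igfbp3 encodes the main carrier in serum, and Igfbp7 encodes a secreted relative that binds IGFs weakly and is common in vessels and connective tissue.

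Cells were grouped from the counts, without the IGF genes, into classes named "like" a cell type by their leading markers. Stellate-like cells (64 in Q, 136 in F) stood for the vitamin A-storing pericytes of the sinusoid, the main source of scar-forming cells. The other mesenchymal classes were portal-fibroblast-like (44 and 62 cells) and mesothelial-like cells (44 and 48), the latter from the lining of the liver surface. The endothelial classes were LSEC-like (liver sinusoidal endothelial, 2097 and 1236), central-vein-like (158 and 208) and portal-vessel-like cells (85 and 206). The macrophage classes were Kupffer-like (390 and 244), the resident macrophages, and monocyte-derived-macrophage-like cells (53 and 426).

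The classes were set beside the same marker lists that named them, so passing is no independent check. The lists hold none of the IGF genes. All 21 stellate, 17 mesothelial, 16 LSEC and 15 Kupffer markers were above 2 times the lymphoid level in both libraries. The portal-fibroblast list held less well: 20 of 22 markers passed in Q and 18 of 22 in F, Ccl11 was at 0 in F, and the summed level of the list was 290 UMIs per 10000 in Q and 120 in F. In the F portal-fibroblast-like cells the summed stellate list stood at 141 per 10000, above their own list, against 173 in Q. Of 14 portal-vessel markers, 12 passed in Q and 11 in F, and in the F cells of that class the summed LSEC list, 121 per 10000, was above their own, 74.7, against 94.9 and 106 in Q. Ratios in these 2 classes may therefore compare different mixes of cells. Other lists also moved in their own class from Q to F. The central-vein list summed to 140 and 60 per 10000, the stellate list to 518 and 323. The monocyte-derived macrophage list summed to 113 and 268, with 13 and 14 of 15 markers passing. The same limit holds for these classes.

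A level is the UMIs of a gene summed over a class, per 10000 UMIs of that class, and the range after it is its exact 95% Poisson interval. Ratios of F over Q carry an exact conditional interval. These intervals cover counting error only, not the spread between mice. The 3′ chemistry gives 1 tag per molecule whatever the transcript length, so levels of different genes were compared without length scaling. Lymphoid-like cells (1594 and 1076 cells) served as the measure of free RNA, since a low level in them need not come from the cell itself. They were B and NK-like cells in Q and B, T and NK-like cells in F, as no Q cluster was named T-like. A gene was called higher or lower where its ratio was at least 2 or at most 0.5 and its level was at least 0.2 per 10000 in either library.

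**Figure D1:**
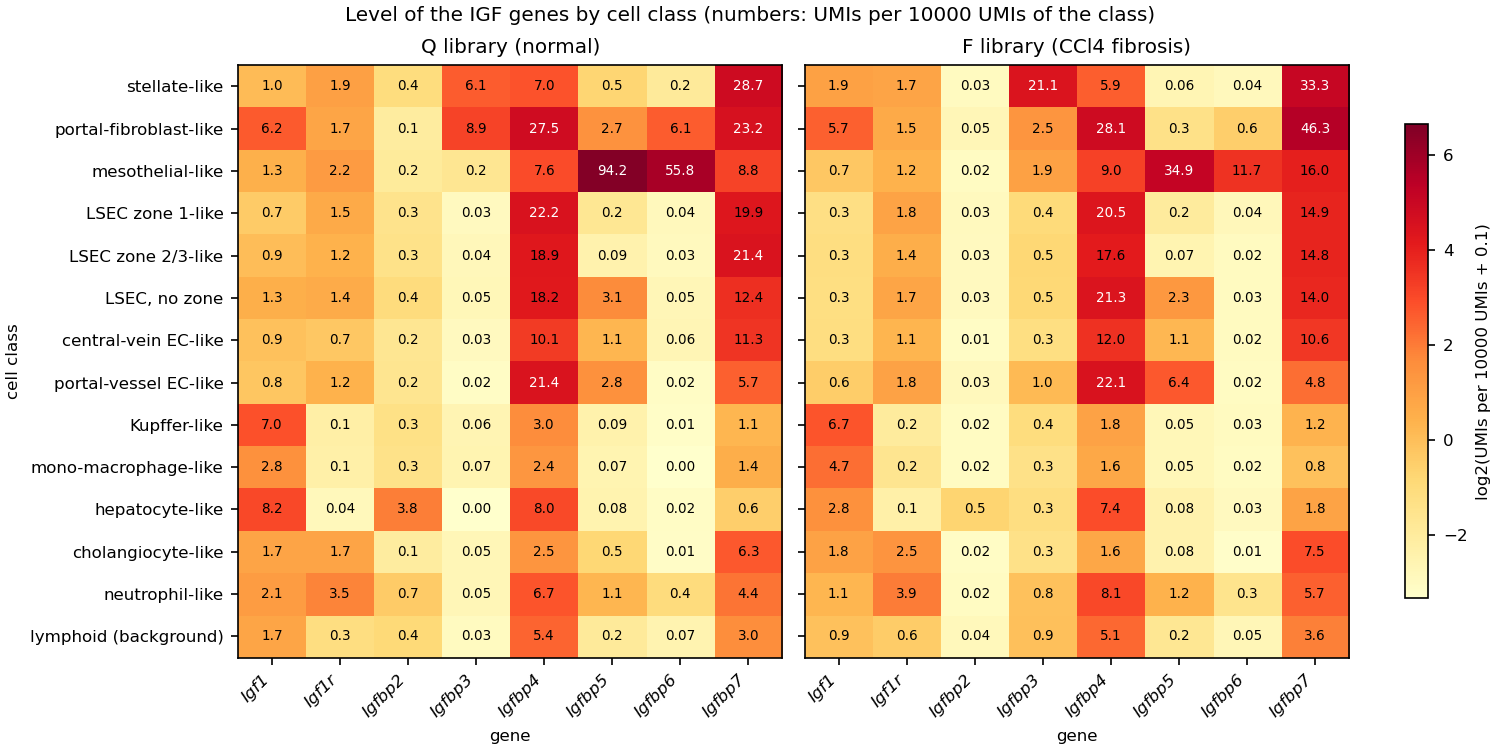
Level of 8 IGF genes (columns) by cell class (rows) in the Q and F libraries. Colour shows log2(UMIs per 10000 UMIs + 0.1), and the number in each cell is the level in UMIs per 10000. Igfbp5 and Igfbp6 are highest in mesothelial-like cells, Igfbp3 in portal-fibroblast-like cells in Q and stellate-like cells in F, Igfbp4 in portal-fibroblast-like cells, and Igf1 in hepatocyte-like cells in Q and Kupffer-like cells in F.

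Each of the 3 IGF ligand and receptor genes had its own pattern. Igf1, at chr10:87858265-87937042 on the plus strand of GRCm38, was found in macrophages and portal-fibroblast-like cells as well as in the hepatocytes that remained. The Kupffer-like level was 7.02 per 10000 (6.64 to 7.40) in Q and 6.67 (6.36 to 6.99) in F, a ratio of 0.95 (0.884 to 1.02). After each cell was thinned to 1000 UMIs, 46.9% of Kupffer-like cells in Q and 45.1% in F held an Igf1 UMI, against 17.3% and 10.4% of lymphoid-like cells. Without thinning these were 79.5% and 96.7% (median depth 3876.5 and 10212 UMIs), and those of lymphoid-like cells 45.3% and 22.6% (3164.5 and 2372). The Kupffer-like level of the ligand was thus close to equal in the 2 mice.

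Monocyte-derived-macrophage-like cells had a lower Igf1 level in Q, 2.77 per 10000 (2.20 to 3.45), than in F, 4.71 (4.54 to 4.88), a ratio of 1.7 (1.36 to 2.15) that was 3.51 with the lymphoid level subtracted. Within F the 5 sub-clusters of this class ranged from 2.17 in the one led by Ms4a4c and Ccr2, a receptor of blood monocytes, to 5.89 in the one led by Atp6v0d2, Gpnmb and Mmp12. The F class thus spanned a range in Igf1 that reached the Q level at its lower end, and its make-up of sub-clusters sets its mean. The Kupffer-like sub-clusters of both libraries lay between 6.12 and 7.65.

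**Figure D2:**
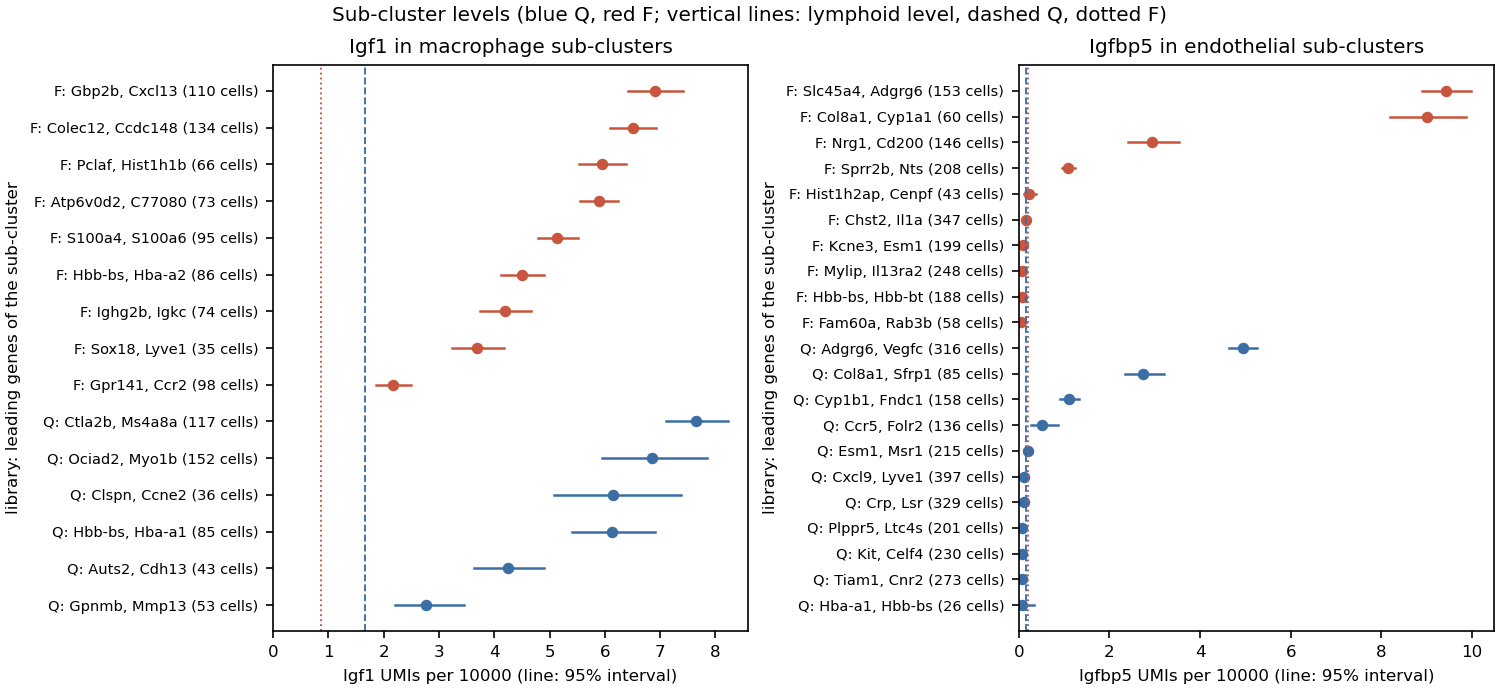
Igf1 in macrophage sub-clusters and Igfbp5 in endothelial sub-clusters, in UMIs per 10000 (horizontal axis), with points for Q in blue and F in red and lines for exact 95% intervals. Vertical lines mark the lymphoid level. Igf1 spans 2.17 to 5.89 among the monocyte-derived-macrophage-like sub-clusters of F, and Igfbp5 stands out in few endothelial sub-clusters.

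Portal-fibroblast-like cells carried Igf1 at 6.21 per 10000 (5.42 to 7.09) in Q and 5.74 (5.31 to 6.20) in F, a ratio of 0.924 (0.792 to 1.08). Stellate-like cells had less, 0.992 (0.715 to 1.34) in Q and 1.85 (1.64 to 2.07) in F, on either side of the lymphoid levels of 1.67 and 0.862. The 2 stellate-like sub-clusters of F differed: the 77 cells led by Ogn, an extracellular matrix proteoglycan, stood at 2.32 (2.05 to 2.61), and the 59 cells led by Hhip, a hedgehog inhibitor that also led the Q cells, at 0.427 (0.249 to 0.684). The stellate-like ratio of 1.86 became 0.431 with the Hhip-led cells alone and 0.976 at a finer clustering. The LSEC-like levels of 1.02 and 0.332 lay below the lymphoid level of their library. In the hepatocyte-like cells that remained, Igf1 stood at 8.23 (7.73 to 8.74) in Q and 2.76 (2.44 to 3.11) in F, a ratio of 0.336. The summed hepatocyte markers of these cells were 2389 per 10000 in Q and 807 in F, and their part in the ratio was not tested.

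In Q the order of Igf1 levels was hepatocyte-like, Kupffer-like and portal-fibroblast-like, and the last 2 overlapped in their intervals. In F, Kupffer-like cells led, a group of 66 cycling macrophages left out of the classes followed at 5.94, and portal-fibroblast-like cells came next, each overlapping its neighbour.

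Igf2, the fetal growth factor at chr7:142650766-142666816 on the minus strand, was nearly undetected. Q held 3 Igf2 UMIs in all kept cells. Of these, 1 lay in mesothelial-like cells, 1 in the 14 cells led by Ccl21a and Mmrn1, and 1 in NK-like cells. At this depth no difference in Igf2 was detectable.

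Igf1r, at chr7:67952827-68233668 on the plus strand, was lowest in macrophages among the main classes. Neutrophil-like cells had the highest level, 3.46 (3.01 to 3.97) in Q and 3.85 (3.32 to 4.46) in F. Mesothelial-like cells followed in Q at 2.17 (1.80 to 2.59), and stood at 1.2 (0.982 to 1.45) in F, a ratio of 0.553 (0.422 to 0.724) that did not reach the limit. Cholangiocyte-like cells, of the bile ducts, followed in F at 2.55 (2.32 to 2.79). Stellate-like cells had 1.94 (1.54 to 2.4) and 1.72 (1.53 to 1.94), and their Q level overlapped that of mesothelial-like cells.

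LSEC-like cells carried Igf1r at 1.31 (1.24 to 1.38) and 1.64 (1.56 to 1.72), a ratio of 1.25 (1.17 to 1.34). They held the largest share of the Igf1r UMIs of any class, 41.2% in Q and 29.7% in F. Kupffer-like cells, high in the ligand, had 0.111 in Q and 0.154 in F, below the lymphoid levels of 0.35 and 0.649. The receptor and the ligand were thus at their highest in different classes of these libraries. After thinning, 26.7% of neutrophil-like cells in Q and 36.0% in F held an Igf1r UMI, against 3.02% and 5.26% of lymphoid-like cells, and 32 neutrophil-like cells of F were too shallow.

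The binding proteins divided the classes more sharply. For Igfbp3, Igfbp5 and Igfbp6, each past the 2-fold limit in both mesothelial-like and portal-fibroblast-like cells, the 100 bases before the RefSeq start of the gene are shown for GRCm38.p6, 5′ to 3′ on the gene's strand. All 9 genes matched an entry of the RefSeq promoter table. Capitals mark matches to the TATA box spelling TATAAA, to its variants TATATA and TATTTAA, or to the spelling CCAAT, on either strand. The variants were added after the windows had been read.
Igfbp3: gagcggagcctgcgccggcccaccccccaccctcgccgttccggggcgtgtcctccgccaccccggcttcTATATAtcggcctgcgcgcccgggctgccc
Igfbp5: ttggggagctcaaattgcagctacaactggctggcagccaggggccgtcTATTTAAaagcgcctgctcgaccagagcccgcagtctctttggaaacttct
Igfbp6: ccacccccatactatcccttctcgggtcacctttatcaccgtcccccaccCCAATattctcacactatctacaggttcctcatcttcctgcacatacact
The windows lie at chr11:7213924-7214023 on the minus strand for Igfbp3, chr1:72874866-72874965 on the minus strand for Igfbp5 and chr15:102144086-102144185 on the plus strand for Igfbp6. The gene positions given in this report come from GENCODE and differ in their starts for Igfbp5 and Igfbp6. The Igfbp5 window overlaps its GENCODE start at 72874884, and the Igfbp6 window ends before its GENCODE start at 102144362. TATATA, held by Igfbp3, was found in 2.19% of 32851 promoters of this length, TATTTAA, held by Igfbp5, in 1.5%, and CCAAT, held by Igfbp6, in 18.9%. TATAAA was in none of these 3 windows and in 5.56% of all. The G and C share was 77% for Igfbp3, 55% for Igfbp5 and 51% for Igfbp6. These are letters in a window, and no binding or chromatin was measured here.

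Igfbp3, on the minus strand at chr11:7206086-7213923, 3539 bases from Igfbp1, was a gene of stellate-like and portal-fibroblast-like cells. In stellate-like cells its level was 6.09 per 10000 (5.37 to 6.88) in Q and 21.1 (20.4 to 21.8) in F, a ratio of 3.46 (3.05 to 3.94). Per cell, it ran from 0 through a median of 3.8 to 34.3 UMIs per 10000 in Q, and from 0 through 16 to 93.4 in F. The cells of the 2 libraries overlapped, with the F cells shifted upward.

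After thinning to 1000 UMIs, 32.8% (21.6 to 45.7, exact binomial) of stellate-like cells in Q and 65.4% (56.8 to 73.4) in F held an Igfbp3 UMI. Without thinning, 70.3% and 90.4% did, with 6054 and 10087.5 UMIs in the median cell. The thinned share of lymphoid-like cells was 0.377% in Q and 10.3% in F. The lymphoid level itself was 0.0272 per 10000 in Q and 0.868 in F, and with it subtracted the stellate-like ratio was 3.33.

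Both F sub-clusters of stellate-like cells were above Q, the 77 Ogn-led cells at 19 (18.3 to 19.8) and the 59 Hhip-led cells at 27.3 (25.7 to 28.9). The ratio stayed above 2 in all 15 alternatives run on the level, from 2.49 with the mesenchymal cells that also carry LSEC or macrophage markers counted in to 5.73 at a stricter mitochondrial limit. In the stellate-like cells the summed hepatocyte markers were 217 per 10000 in Q and 15.4 in F and the summed portal-fibroblast markers 20.1 and 38.3. The stellate markers themselves summed to 518 and 323, and monocyte-derived macrophage markers to 9.73 and 22.2. The part of these lists in the ratio was not tested.

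Portal-fibroblast-like cells went the other way for Igfbp3, from 8.86 (7.91 to 9.89) in Q to 2.51 (2.23 to 2.81) in F, a ratio of 0.283 (0.241 to 0.333). Per cell, the median was 3.82 in Q and 0.824 in F, and the highest cells 47.8 and 13.2. At a finer clustering the ratio was 0.722. In Q, Igfbp3 was therefore highest in portal-fibroblast-like cells, and in F in stellate-like cells, with intervals that do not overlap in either library.

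Mesothelial-like cells had 0.215 (0.111 to 0.376) in Q, with 91.7% of the UMIs in 3 cells, and 1.86 (1.59 to 2.17) in F, a ratio of 8.66 (4.82 to 17.1) that ran from 5.29 to 80.7 over the alternatives. The LSEC-like level of 0.447 and the Kupffer-like level of 0.374 in F were below the lymphoid level there, so their ratios of 10.2 and 5.87 are read as background, as are those of central-vein-like (0.338 in F) and monocyte-derived-macrophage-like cells (0.293). Portal-vessel-like cells had 1 UMI in Q, 0.0163 per 10000, and 1.02 (0.815 to 1.25) in F, a ratio of 62.4 (10.9 to 2494), but the F level overlapped the lymphoid interval of 0.769 to 0.976.

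**Figure D3:**
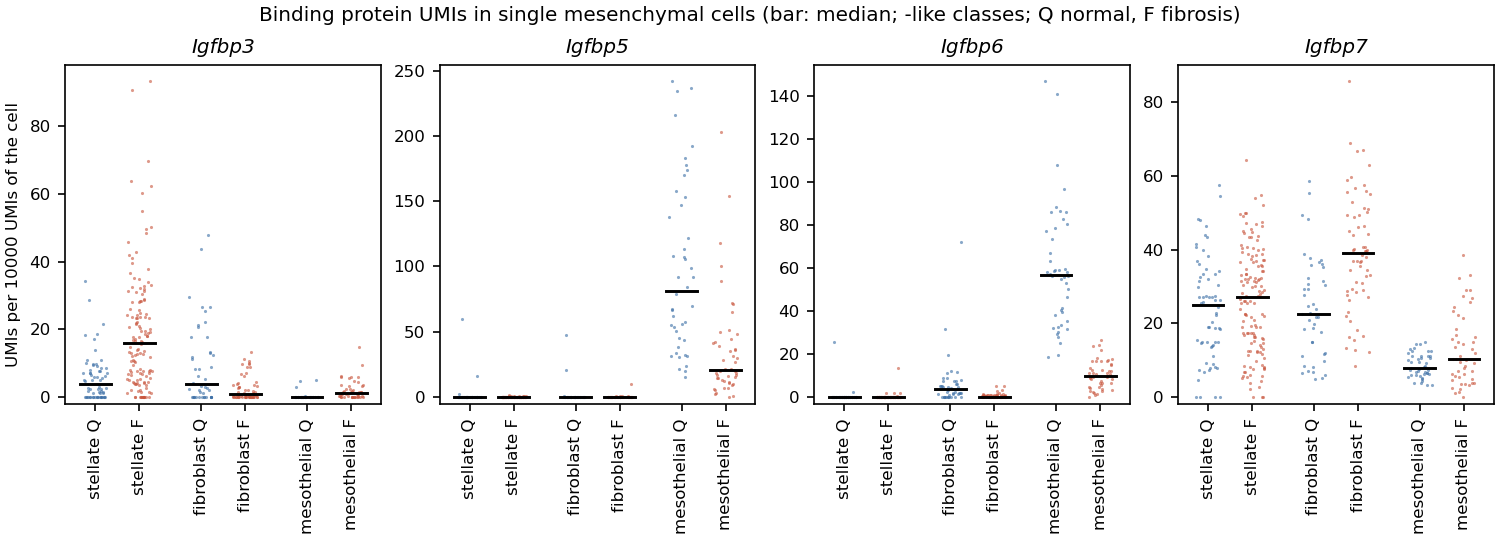
Igfbp3, Igfbp5, Igfbp6 and Igfbp7 in single stellate-like, portal-fibroblast-like and mesothelial-like cells, in UMIs per 10000 of the cell (vertical axis), with 1 point per cell and a bar for the median. Igfbp3 is higher in F stellate-like cells, with medians of 3.8 and 16, and Igfbp5 and Igfbp6 are lower in F mesothelial-like cells, with medians of 81.5 and 20.5 for Igfbp5.

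Igfbp5, on the minus strand at chr1:72857932-72874884, 5457 bases from Igfbp2, encodes a binding protein that attaches to extracellular matrix. Its Q mesothelial-like level was the highest of any IGF gene in any class. In mesothelial-like cells the level was 94.2 per 10000 (91.7 to 96.8) in Q and 34.9 (33.7 to 36.2) in F, a ratio of 0.371 (0.354 to 0.388). Per cell, it ran from 15 through a median of 81.5 to 242 in Q and from 0 through 20.5 to 203 in F. The 2 libraries overlapped over most of this range, with every Q cell positive.

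After thinning, 97.7% of the mesothelial-like cells in Q and 84.8% in F held an Igfbp5 UMI, with 2 cells of F too shallow, against 1.32% and 2.26% of lymphoid-like cells. Without thinning, 100% and 97.9% did, with 11191.5 and 16072.5 UMIs in the median cell. The mesothelial markers themselves summed to 339 per 10000 in Q and 350 in F, and other lists moved in these cells: hepatocyte markers summed to 114 and 18.1, Kupffer markers to 2.49 and 21.5, monocyte-derived macrophage markers to 9.67 and 22, and cycling markers to 1.09 and 8.52. Their part in the Igfbp5 and Igfbp6 ratios was not tested. The ratio lay between 0.347 and 0.381 in 10 alternatives on the level, and at 0.533 in UMIs per cell.

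Among the mesenchymal, endothelial and macrophage classes, portal-vessel-like cells stood next, at 2.75 (2.35 to 3.2) in Q, where portal-fibroblast-like cells overlapped them at 2.73 (2.21 to 3.33), and at 6.39 (5.87 to 6.95) in F, a ratio of 2.33 (1.95 to 2.78). After thinning to 1000 UMIs, 11.8% of these cells in Q and 21.8% in F held a UMI, against 1.32% and 2.26% of lymphoid-like cells, with 4 cells of F too shallow. Without thinning, 34.1% and 33.0% did, at median depths of 7048 and 2389 UMIs, against 3.26% and 5.2% of lymphoid-like cells. In Q, 3 cells held 52.7% of the UMIs. Without those 3 cells and the 3 highest of F the ratio was 3.73, and with classes named by mean marker fold it was 1.38. The F class comprised 146 shallow cells with a median of 2151.5 UMIs and a level of 2.93, and 60 deeper cells at 9 (8.18 to 9.87). In portal-vessel-like cells the summed Kupffer markers were 4.13 per 10000 in Q and 25.4 in F. Monocyte-derived macrophage markers summed to 14.6 and 26.1, and hepatocyte markers to 187 and 29.3. The part of these lists in the Igfbp5 ratio was not tested.

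Among LSEC-like cells the Igfbp5 UMIs lay in 1 sub-cluster of each library, led by Adgrg6 and Mecom. In Q it held 316 cells at 4.94 (4.64 to 5.26), of which 30 had 10 UMIs or more. In F it held 153 cells at 9.43 (8.89 to 9.98), of which 35 had 10 or more. The other LSEC-like sub-clusters were at 0.0656 to 0.513 in Q and 0.0462 to 0.221 in F, against lymphoid levels of 0.165 and 0.209. The ratio of 1.22 over all LSEC-like cells ran from 0.821 to 9.43 over the alternatives. Gja5, on the portal-vessel list, was among the leading genes of the Adgrg6- and Mecom-led sub-cluster in both libraries. Under naming by mean marker fold the Q portal-vessel-like class held 368 cells instead of 85. The border between LSEC-like and portal-vessel-like cells thus depends on the naming. Central-vein-like cells had 1.11 in Q and 1.09 in F. Their ratio of 0.984 ran from 0.933 to 45.1 over 12 alternatives, being 45.1 at resolution 1.5 and 10.3 once the 3 richest cells of each library were left out, and gives no direction.

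The portal-fibroblast-like ratio of 0.108 for Igfbp5 rests on 3 of the 44 Q cells, which hold all 97 UMIs, and it was 0.772 with 3000 variable genes. The stellate-like ratio of 0.126 likewise rests on 3 Q cells with 21 UMIs, and is above 1 under 3 alternatives.

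Igfbp6, on the plus strand at chr15:102144362-102149511, encodes the binding protein that prefers IGF2. It was the most confined of the set: mesothelial-like cells held 88.5% of its UMIs in Q and 65.4% in F. Their level was 55.8 (53.9 to 57.8) in Q and 11.7 (11.0 to 12.4) in F, a ratio of 0.21 (0.195 to 0.225). Per cell, it ran from 18.5 through a median of 56.8 to 147 in Q and from 0 through 9.85 to 26.3 in F. Only the upper end of the F cells reached the lower end of the Q cells.

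After thinning, 100% of mesothelial-like cells in Q and 63.0% in F held an Igfbp6 UMI, against 0.565% and 0.564% of lymphoid-like cells. The ratio on the level stayed between 0.176 and 0.212 in 10 alternatives. Portal-fibroblast-like cells had 6.07 (5.29 to 6.94) in Q and 0.614 (0.480 to 0.774) in F, a ratio of 0.101 (0.0762 to 0.133). In these cells 3 cells held 46.8% of the Q UMIs, and the summed mesothelial markers were 45 per 10000 in Q and 12.8 in F. Their part in the Igfbp6 ratio was not tested. The other mesenchymal, endothelial and macrophage classes were at 0.165 or lower in both libraries, and neutrophil-like cells at 0.383 in Q and 0.253 in F. There were 0 UMIs in the Q monocyte-derived-macrophage-like cells, where a count of 0 allows up to 3 UMIs, or 0.104 per 10000.

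Igfbp7, on the minus strand at chr5:77349240-77408041, was spread over mesenchymal and endothelial classes. In portal-fibroblast-like cells it stood at 23.2 per 10000 (21.6 to 24.8) in Q and 46.3 (45.1 to 47.5) in F, a ratio of 2 (1.86 to 2.15) that fell just short of the limit before rounding. That ratio ran from 1.63 to 2.11 over 9 alternatives on the level, so the call depends on the setting. Per cell, the median was 22.6 in Q and 39.1 in F, within ranges of 5.02 to 58.6 and 8.47 to 85.7. Every cell of this class held an Igfbp7 UMI in both libraries.

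Stellate-like cells had 28.7 (27.1 to 30.4) and 33.3 (32.4 to 34.2), a ratio of 1.16 (1.09 to 1.24). Their 2 F sub-clusters lay on either side of the Q level, the Ogn-led cells at 37.0 (35.9 to 38.1) and the Hhip-led cells at 22.3 (20.8 to 23.8), the reverse of their order for Igfbp3. Mesothelial-like cells had 8.83 (8.06 to 9.64) and 16.0 (15.2 to 16.9), a ratio of 1.82 (1.64 to 2.02). LSEC-like cells had 18.6 (18.3 to 18.8) and 14.4 (14.2 to 14.6), a ratio of 0.776 (0.760 to 0.793). Among LSEC-like cells the ratio was 0.748 in those with periportal markers (215 cells in Q, 347 in F), 0.692 in those with midlobular or pericentral markers (1101 and 306) and 1.13 (1.09 to 1.17) in those of no zone (781 and 583), so the mix of these cells also differed between the libraries. In UMIs per cell the ratio over all LSEC-like cells was 1.24. Stellate-like cells stood above portal-fibroblast-like cells in Q and below them in F, with intervals that do not overlap in either library.

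Igfbp4, on the plus strand at chr11:99041244-99054392, encodes a binding protein that keeps IGF from its receptor until the protease PAPP-A cuts it. Portal-fibroblast-like cells had the highest level, 27.5 (25.8 to 29.3) in Q and 28.1 (27.1 to 29.1) in F, a ratio of 1.02 (0.95 to 1.10). Portal-vessel-like cells followed at 21.4 and 22.1, and LSEC-like cells at 19.1 (18.9 to 19.4) and 20.2 (19.9 to 20.5), with ratios of 1.04 and 1.06. In the LSEC-like cells of the periportal, midlobular or pericentral, and no zone groups the ratios were 0.921, 0.931 and 1.17. These classes kept their order in both libraries. Central-vein-like cells were lower, at 10.1 in Q and 12 in F, and stellate-like cells lower still, at 6.99 and 5.9. The stellate-like ratio was 0.844 (0.74 to 0.965) and ran from 0.503 to 0.924. The LSEC-like cells held 54.4% of all Igfbp4 UMIs in Q and 42.9% in F. Macrophage classes, at 1.59 to 3.01, were below the lymphoid levels of 5.39 and 5.08.

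Igfbp2, on the plus strand at chr1:72824503-72852474, is a binding protein made by hepatocytes. Hepatocyte-like cells had 3.75 (3.42 to 4.10) in Q and 0.513 (0.381 to 0.677) in F, a ratio of 0.137 (0.1 to 0.183). In LSEC-like cells it went from 0.308 to 0.0296 and in stellate-like cells from 0.378 to 0.025, but lymphoid-like cells went from 0.443 to 0.0406. Except for the F portal-fibroblast-like cells, at 0.0519 on 6 UMIs, the mesenchymal, endothelial and macrophage classes were at or below the lymphoid level of their library and are read as background. Neutrophil-like cells stood at 0.666 (0.476 to 0.907) in Q and 0.0211 in F. The summed hepatocyte markers were 2389 per 10000 in Q and 807 in F in hepatocyte-like cells, and 377 and 36.4 in lymphoid-like cells. Their part in the Igfbp2 ratios was not tested.

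**Figure D4:**
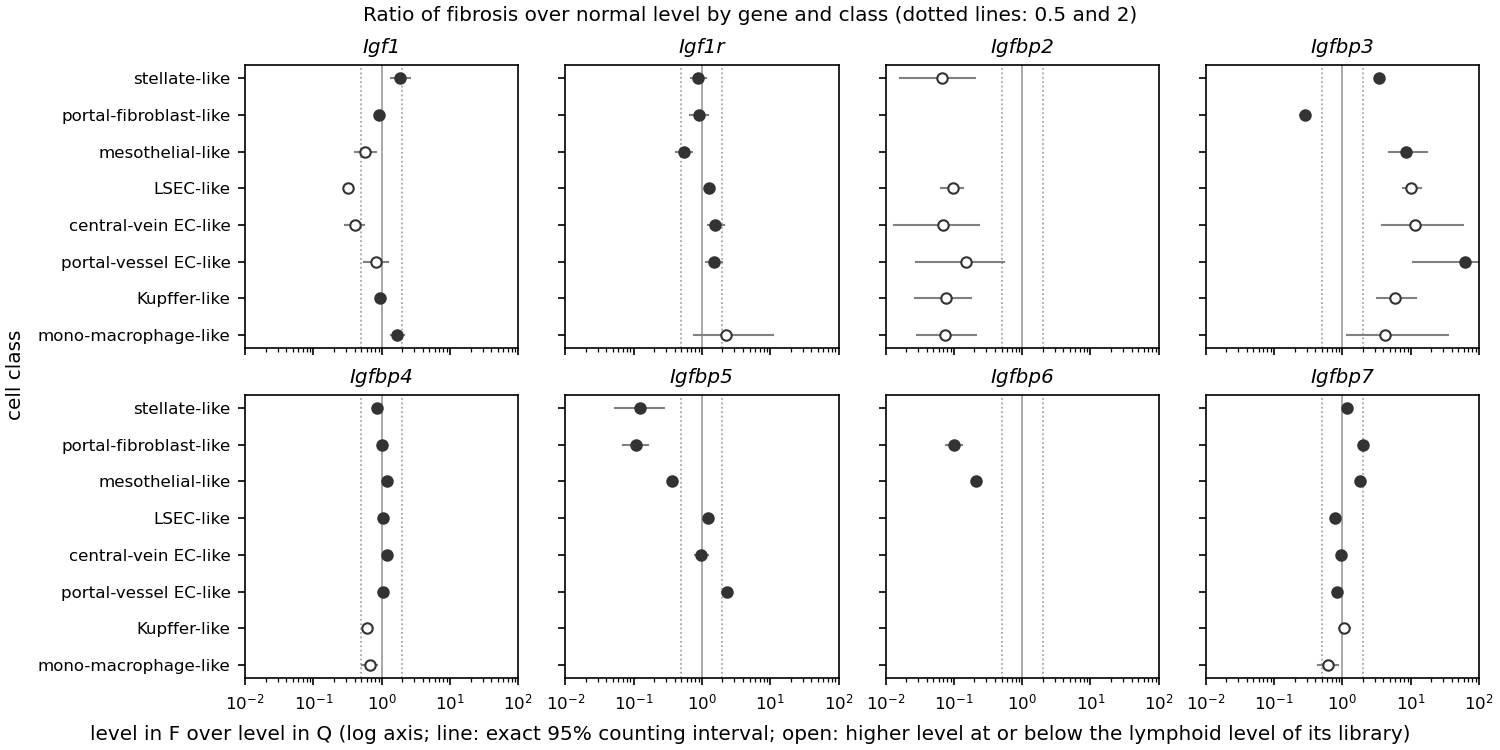
Ratio of the F over the Q level (horizontal, log axis) of each IGF gene by class, with exact 95% intervals and dotted lines at 0.5 and 2. Open symbols mark ratios whose higher level is at or below the lymphoid level of its library. Igfbp3 lies at 3.46 in stellate-like and 0.283 in portal-fibroblast-like cells, Igfbp5 at 0.371 and Igfbp6 at 0.21 in mesothelial-like cells, and Igfbp4 close to 1 in portal-fibroblast-like and endothelial classes.

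The IGF genes past the 2-fold limit were counted by class. In stellate-like cells 7 of the 9 reached the minimum level, 1 was higher in F (Igfbp3) and 2 were lower (Igfbp2 and Igfbp5), beside 8.86% of 7880 genes higher and 9.02% lower. Portal-fibroblast-like cells had none of 7 higher and 3 lower (Igfbp3, Igfbp5 and Igfbp6), beside 13.2% and 11.6%. Mesothelial-like cells had 1 of 7 higher (Igfbp3) and 2 lower (Igfbp5 and Igfbp6), beside 14% and 8.66%.

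LSEC-like cells had 1 of 7 higher (Igfbp3) and 2 lower (Igf1 and Igfbp2), beside 3.54% and 5.82%, and Kupffer-like cells had 1 of 5 higher (Igfbp3) and 1 lower (Igfbp2), beside 4.08% and 6.12%. In these 2 classes every gene called had its higher level at or below the lymphoid level of that library, so no IGF gene with a level above that of lymphoid-like cells passed the limit there. Central-vein-like cells had 1 of 7 higher (Igfbp3) and 2 lower (Igf1 and Igfbp2), beside 7.69% and 9.04%, and monocyte-derived-macrophage-like cells 2 of 6 higher (Igf1r and Igfbp3) and 1 lower (Igfbp2), beside 9.24% and 16.1%, again all below the lymphoid level. Portal-vessel-like cells had 2 of 7 higher (Igfbp3 and Igfbp5) and 1 lower (Igfbp2), beside 11.2% and 8.68%, and of these Igfbp5 was clearly above the lymphoid level.

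The median ratio of the genes over the minimum was 0.89 in stellate-like, 0.902 in portal-fibroblast-like, 0.574 in mesothelial-like, 1.06 in LSEC-like and 0.95 in Kupffer-like cells, against 1.01, 1.05, 1.09, 1.05 and 1.09 over all genes tested. It was 0.984 in central-vein-like, 1.04 in portal-vessel-like and 1.18 in monocyte-derived-macrophage-like cells, against 1.06, 1.04 and 0.921.

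The sum of the 6 binding proteins gives their joint output per class. Mesothelial-like cells had the highest sum in Q, 167 per 10000 (164 to 170), and stood at 73.5 (71.8 to 75.4) in F, a ratio of 0.441 (0.427 to 0.455). Portal-fibroblast-like cells, with the highest sum in F, had 68.5 and 77.8 (76.2 to 79.5), a ratio of 1.14, and stellate-like cells 42.8 and 60.4, a ratio of 1.41 (1.34 to 1.48). LSEC-like cells had 39.1 and 36.3, a ratio of 0.93. Mesothelial-like and portal-fibroblast-like cells were thus far apart in Q and close in F.

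The make-up of that sum shifted in each mesenchymal class. Igfbp3 was 14.2% (12.7 to 15.9) of stellate-like binding protein UMIs in Q and 34.9% (33.9 to 35.8) in F, while Igfbp7 was 67.0% and 55.2%. In portal-fibroblast-like cells Igfbp7 was 33.8% in Q and 59.5% in F. In mesothelial-like cells Igfbp6 was 33.5% and 15.9% and Igfbp7 5.29% and 21.8%. LSEC-like cells were split between Igfbp4, 49.0% and 55.7%, and Igfbp7, 47.5% and 39.7%, in both libraries. Shares of a sum move together, so a larger share of 1 gene lowers those of the others.

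**Figure D5:**
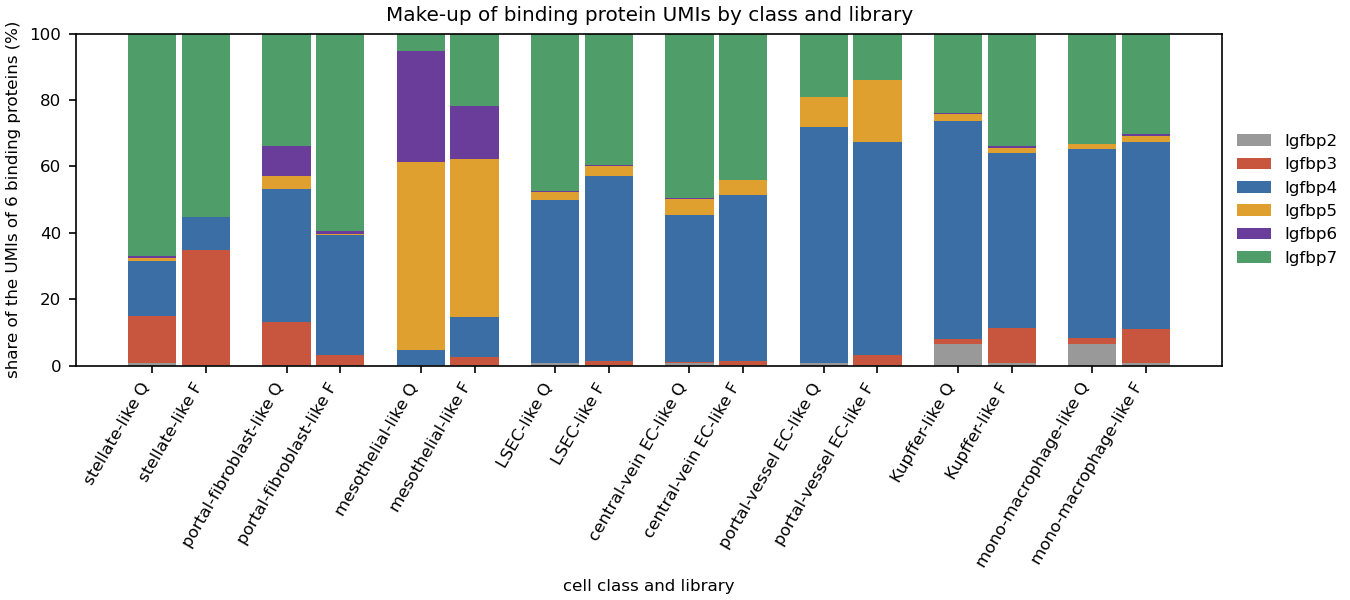
Share of each binding protein (percent of the UMIs of 6 binding protein genes, coloured segments) by class and library. Igfbp3 takes 14.2% in Q and 34.9% in F stellate-like cells, Igfbp7 33.8% and 59.5% in portal-fibroblast-like cells, and Igfbp5 remains the largest part in mesothelial-like cells.

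A list of 39 other genes of the pathway was read in the same classes, and 38 were listed in both tables. In stellate-like cells 25 reached the minimum level, 5 were higher in F and 1 was lower, beside 8.86% and 9.02% of all genes tested. The higher ones were Igf2r, which encodes the receptor that clears IGF2, Akt2, a kinase of the signalling arm, and 3 proteases that can cut binding proteins: Htra1 with a ratio of 8.02 (2.66 to 39.6, on 3 Q UMIs), Htra3 with 4.05 (2.31 to 7.74) and Adam12 with 4.72 (2.1 to 13.1). The lower one was Igfbp1, a hepatocyte binding protein. Igf2r (0.537 in F), Akt2 (0.706 in F) and Igfbp1 (0.307 in Q) had their higher level below that of lymphoid-like cells (0.687, 0.709 and 0.401), while the 3 proteases were above it.

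Portal-fibroblast-like cells had 27 over the minimum, 1 higher (Adam12, 3.73 times) and 7 lower, beside 13.2% and 11.6% of all genes. Htra3 was the opposite of its stellate-like pattern, from 4.70 to 0.986 per 10000, a ratio of 0.21 (0.164 to 0.268). The others lower were Stc2, an inhibitor of PAPP-A, at 0.127, Foxo1 at 0.329, Stat5a at 0.359, Stat5b at 0.384, Pappa at 0.39 and Igf2r at 0.475. Of these, Foxo1 and Stat5b had their Q level below that of lymphoid-like cells.

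Mesothelial-like cells had 27 over the minimum, 6 higher and 4 lower, beside 14% and 8.66% of all genes. Pappa, which encodes PAPP-A, was at 0.108 in Q and 0.983 in F, a ratio of 9.13 (4.03 to 25.6), and Adamts1, a matrix protease that can cut binding proteins, had a ratio of 3.98 (2.79 to 5.83) and a level of 2.57 in F, against 2.59 in lymphoid-like cells. Htra1 was lower, from 2.21 to 0.549, a ratio of 0.249. The other higher genes were Igf2r, Irs2, Grb10 and Stat5a, with ratios of 2.12 to 2.78, and the other lower genes Grb14, Igf2bp1 and Foxo3, with 0.196 to 0.496. Stat5a was below the lymphoid level in F.

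In LSEC-like cells 23 were over the minimum, 4 higher and 2 lower, beside 3.54% and 5.82% of all genes. Adamts1 went from 5.14 (5.01 to 5.27) to 10.6 (10.4 to 10.8), a ratio of 2.06, beside 3.75 in lymphoid-like cells at 0.691 and 2.59. The other higher genes were Lrp1, Stc1 and Igf2bp2, and the lower ones Ghr, the growth hormone receptor, and Igfbp1. Lrp1 in F (0.636 against 1.36), and Ghr (0.799 against 1) and Igfbp1 in Q, were below the lymphoid level and are read as background. Kupffer-like cells had 20 over the minimum, 4 higher (Igf2r, Adamts1, Irs2 and Igf2bp2) and 2 lower (Ghr and Igfbp1), beside 4.08% and 6.12% of all genes, and all of these but Igf2bp2 had their higher level below the lymphoid level. Central-vein-like cells had 22 over the minimum, 4 higher and 5 lower, beside 7.69% and 9.04% of all genes. Portal-vessel-like cells had 23, with 6 higher and 1 lower, beside 11.2% and 8.68%. Monocyte-derived-macrophage-like cells had 19, with 4 higher and 3 lower, beside 9.24% and 16.1%. The genes behind these counts are not named here. Lrp1, an endocytic receptor that can bind IGFBP3, was highest in macrophage, stellate-like and portal-fibroblast-like cells, at 8.33, 7.69 and 7.19 in F in the Kupffer-like, stellate-like and portal-fibroblast-like classes. Insr, the insulin receptor, was highest in portal-vessel-like cells, at 8.47 in Q and 8.32 in F, followed by central-vein-like (3.28 and 2.3) and LSEC-like cells (2.85 and 2.11).

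The genes most like each IGF gene were taken over 49 classes of both libraries, by Pearson's r of log2(level + 0.1). For Igfbp3 these were Gdf10 (r = 0.96), Postn (0.96), which encodes a matrix protein, and Lum (0.94), a proteoglycan. For Igfbp6 they were Rspo1 (0.95), Osr1 and Nkain4 (0.94 each), of which Rspo1 and Nkain4 are on the mesothelial marker list. Igfbp5 was nearest to Spock2 (0.84) and Cldn15 (0.82), both highest in mesothelial-like cells, and Igfbp7 to Pxdn (0.94). Igfbp2 followed the hepatocyte genes C8b, Cyp2d26 and F12 (0.97 to 0.98). Igf1 was nearest to Apoe (0.74), Igf1r to Csf1 (0.85) and Igfbp4 to Adarb1 (0.86). The classes share 2 libraries and their free RNA, so these values are a description with no test.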

How the data were processed

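Single-cell RNA libraries of hepatic non-parenchymal cells were made from 1 normal (Q) and 1 fibrotic (F) mouse with version 3 droplet chemistry. The authors deposited UMI counts per gene and cell, not normalized, and the submitters' processing notes name Cell Ranger 3.0.1 and the mm10 build. The study's stated limits, mitochondrial share under 10% and over 200 genes, were applied here, since 659 Q and 305 F cells in the files exceeded the first. They left 7471 and 6132 cells. In all, 15 barcodes were in both libraries. Doublets were not removed.

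Each library was clustered alone with scanpy 1.11.5 (2000 variable genes, 10 components, 20 neighbours, leidenalg 0.10.2 at resolution 0.8), and the mesenchymal, endothelial and macrophage cells again. The 9 genes and 39 pathway genes took no part in choosing variable genes or names. A sub-cluster was named by a list with a marker among its 10 leading genes and at least 3 raised markers. Leading genes had at least 0.5 UMIs per 10000. Failing that, it kept the name of its first cluster, or among endothelial cells counted as LSEC-like of no zone. All 64 Q stellate-like cells and the 77 Ogn-led F cells kept the first name. A sub-cluster was set apart where LSEC or macrophage markers reached 25% of their level in their own cells or another class led it. That naming rule was set after seeing the data. So 61 Q and 174 F mesenchymal cells with LSEC markers, 64 F cells with macrophage markers, 56 cycling cells and 838 Q and 314 F unnamed cells were left out of the classes. Also left out were 43 Q and 35 F macrophages with LSEC markers and 66 F macrophages led by cycling genes. The same holds for 26 Q endothelial cells led by haemoglobin genes, 14 Q Ccl21a-led cells and 29 F Cxcl5-led cells.

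UMIs were summed per class and compared as in the report, with scipy 1.17.1 and no test, as each condition had 1 library. The ratio step was tested on simulated data. All 9 genes are named whatever their values. Pathway genes are named beyond the 2-fold limit in stellate-like, portal-fibroblast-like, mesothelial-like, LSEC-like or Kupffer-like cells, or at a high level. Similar genes are named by the 3 highest correlations. The members and lists were chosen with earlier results of these data known. Gene positions come from GENCODE for GRCm38. Alternatives changed the mitochondrial limit, clustering, naming, doublets, scale and background.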

Additional observations from a re-analysis of the deposited data

Results flagged for a closer look

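Igfbp3 and Igfbp5 differed in opposite directions between classes under the same contrast of F over Q. The Igfbp3 ratio was 8.66 in mesothelial-like cells and 0.283 in portal-fibroblast-like cells. The Igfbp5 ratio was 2.33 in portal-vessel-like endothelial cells and 0.108 in portal-fibroblast-like cells. With 1 library per condition neither difference between classes was tested. The second rests on 3 portal-fibroblast-like cells of Q. Without the 3 cells richest in Igfbp5 the Q class held no Igfbp5 UMI and gave no ratio.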

How the results depend on the processing

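Over 53 ratios, 649 alternative values were computed: 456 stayed within the counting error of the reported value and the others did not. Of all values, 44 lay on the other side of 1 from the reported ratio, 13 of them as UMIs per cell, and for ratios past the 2-fold limit this was so in 3 values. The stellate-like Igfbp5 ratio of 0.126 became 2.13 at resolution 1.5, 3.69 with 3000 variable genes and 1.3 with mixed mesenchymal cells counted in.

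For stellate-like Igfbp3 (3.46) the values were 5.73 at a 5% mitochondrial limit, 6.15 in UMIs per cell, 4.47 with the Hhip-led F cells alone and 2.49 with the mixed cells counted in. For portal-fibroblast-like Igfbp4 (1.02) they were 0.766 at resolution 1.5, 1.22 without the 3 richest cells, 2.36 per cell and 1.12 as a mean over cells. For Igfbp7 there (2) they were 1.83 at resolution 1.5, 1.79 with 3000 variable genes, 1.85 without the 5% of cells with the highest Scrublet score, 4.61 per cell and 1.63 as a mean over cells. In mesothelial-like cells Igf1r (0.553) gave 0.795 per cell and 0.303 with the lymphoid level subtracted, Igfbp5 (0.371) gave 0.347 without the 3 richest cells and 0.533 per cell, and Igfbp6 (0.21) gave 0.302 per cell and 0.176 as a mean over cells. Kupffer-like Igf1 (0.95) gave 1.09 at a 5% mitochondrial limit, 2.09 per cell and 1.09 with the lymphoid level subtracted. UMIs per cell follow the depth of each class, which was larger in F for most of them. Beyond this, the causes of these shifts were not tested.

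A fold limit of 1.5 called 10.3% to 25.7% of genes higher and 9.77% to 20.5% lower over stellate-like, portal-fibroblast-like, mesothelial-like, LSEC-like and Kupffer-like cells, and a minimum of 1 UMI per 10000 called 3.62% to 13.4% and 5.09% to 12.3%. No value could be had for portal-fibroblast-like, mesothelial-like and monocyte-derived-macrophage-like cells at a 5% mitochondrial limit, for the first 2 at resolution 0.4, for portal-fibroblast-like cells under naming by mean marker fold, or for portal-vessel-like cells with no mitochondrial limit, as the class was then missing in a library. The alternatives on the stellate-like sub-clusters, mixed cells, low-depth or haemoglobin-led sub-clusters and shared barcodes were chosen after seeing the data. No paired analysis was possible because each condition had 1 library. Depth limits Igf2 and every level near the lymphoid level.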

Other observations

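Several groups of cells left out of the named classes carried IGF genes at a high level. In Q, 14 cells led by the chemokine gene Ccl21a and the multimerin gene Mmrn1 had Igfbp5 at 26.0 per 10000 (22.9 to 29.4), with UMIs in 10 of the 14 and 58.3% of them in 3 cells. In F, 29 cells led by Cxcl5 and Fndc1 had Igfbp6 at 3.31 (2.93 to 3.72), held by 26 cells, and Igfbp4 at 13.5 (12.7 to 14.3). These cells held 17.9% of all Igfbp6 UMIs of F.

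Mesenchymal cells that also carried LSEC markers had Igfbp3 at 3.94 (3.56 to 4.35) in Q, in 61 cells, and at 9.15 (8.89 to 9.41) in F, in 174 cells. Those with macrophage markers in F had 9.12 (8.66 to 9.59), and cycling mesenchymal cells 5.96 (5.56 to 6.38). The cells with LSEC markers held 33.7% of the Igfbp3 UMIs of Q and 36.7% of those of F, more than the stellate-like class in either library (22.5% and 26.3%). Their median depths, 15562 UMIs in Q and 27297.5 in F, were above those of stellate-like cells. Whether they are single cells or doublets was not tested.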
